A study of Mus musculus with 24 samples.

Results

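Of 8 genes of fatty acid oxidation and its control by peroxisome proliferator-activated receptors (PPARs), 1 was called changed in mouse cerebellum in the 12 planned comparisons. These were planned with earlier results of the same data known. Ppargc1a, which encodes the transcriptional coactivator PGC-1alpha, fell under 4-phenylbutyrate (4PBA) when the 6 pairs of groups with and without the drug were averaged. In that average 1 of 11 member probes and 0.583% of all probes were called. Ppargc1a was not called without both arrays whose labels are in doubt. A second gene, Acadvl, was called only in a Derlin-1 comparison added after its values were seen, where 1 of 11 member probes and 9.68% of all probes were called, and it stayed called under 5 of 21 alternatives. The 8 genes were chosen by name: Ppara, Ppargc1a, Cpt1a, Acadvl, Acadm, Hadha, Pdk4 and Ucp2. They are 8 of 22911 gene symbols on the array. Every probe whose annotated transcript belonged to them was taken, which gave 11 of 56605 probes: 2 each for Ppara, Ppargc1a and Ucp2, and 1 for each of the others. All 11 were well above background on all 24 arrays and entered the tests, as did 38324 probes in all.

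Total RNA of cerebellum from 28-day-old C57BL/6 mice was measured on 24 single-colour arrays in 12 groups of 2. Knockout (KO) mice carried floxed Derl1 or floxed Derl2 and a Cre recombinase under the nestin promoter, which is active in neural progenitors. Their controls were Derl1 flox/flox or Derl2 flox/flox mice. Mice received 200 mg/kg of 4PBA or water as vehicle by intraperitoneal injection every day from day 14 to day 28 after birth. The groups on the Derlin-2 slide were Derlin-2 control with vehicle, Derlin-2 KO with vehicle, Derlin-2 control with 4PBA and Derlin-2 KO with 4PBA. A numbered Derlin-1 series had the same 4 kinds of group. A lettered Derlin-1 series had control and KO groups with 4PBA and without; the titles of the latter name no vehicle, and they are called untreated here as a name only. The labels do not say whether these mice were injected, so 4PBA and daily injection cannot be told apart in the lettered series. The labels do not say whether the 2 arrays of a group came from separate animals, so p-values measure the spread between arrays, which may be technical.

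Each of the 3 series lay on 1 slide of 8 arrays, where 4PBA arrays filled 1 of the 2 rows and each genotype had its own columns. Slide position therefore cannot be told apart from treatment or genotype, and slide cannot be told apart from series. The share of spots well above background was 57.7% to 68.4%. On the Derlin-2 slide it was 63.5% to 66.9% with vehicle and 57.7% to 62.9% with 4PBA. Spots flagged as outliers there were 213 to 408 with vehicle and 489 to 637 with 4PBA, and 124 to 182 against 227 to 384 on the numbered slide. The share on the other 2 slides, and the flags on the lettered slide, overlapped. The part of array quality in the 4PBA differences was not tested. The Derl1 probe lay between 1.31 and 1.80 on the 8 Derlin-1 control arrays and between 0.68 and 1.51 on the 8 KO arrays; where it lies relative to the deleted part is not given in the sources used here. On the first Derl2 probe (A_51_P498831) the library labelled Derlin-2 KO vehicle 1 had 2.30, the 4 Derlin-2 controls 1.96 to 2.14 and the other 3 Derlin-2 KO arrays 0.73 to 1.08. Its Derl3, at -1.26, was instead like the other 3 Derlin-2 KO arrays (-1.40 to -0.01) and above the 4 Derlin-2 controls (-2.47 to -2.15). Derl3 stood at -1.73 in the library labelled Derlin-1 KO 4PBA b, where the other 7 Derlin-1 KO arrays had -0.06 to 0.92 and the lettered controls with 4PBA had -1.97 and -1.64. Several results that use these 2 arrays are given with and without them. A level is the log2 intensity of a probe minus that of the 75th percentile of its array, so 0 is the 75th percentile. Levels of different probes are not set against each other, because probes differ in brightness for equal amounts of RNA.

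Mitochondrial beta-oxidation shortens fatty acids in repeated cycles. Long chains enter mitochondria through carnitine palmitoyltransferase 1, and chain-length-specific dehydrogenases and the trifunctional protein then remove carbon units as acetyl-CoA. PPARalpha, a nuclear receptor that binds fatty acids, and its coactivator PGC-1alpha drive transcription of these enzymes in liver, heart and muscle. Brain uses mostly glucose, and in it this pathway is best known from astrocytes. 4PBA, a short aromatic fatty acid used as a chemical chaperone and histone deacetylase inhibitor, is itself shortened to phenylacetate by beta-oxidation.

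The 250 bases before the RefSeq start site (GRCm38.p6) are shown for Ppargc1a, because it is the member called in a planned comparison, and for the 3 members whose window holds AGGTCA, the half-site that PPARs and related nuclear receptors bind. Sequences run 5′ to 3′ on the gene's strand, and capitals mark AGGTCA or its reverse complement.
Ppargc1a (chr5:51567726-51567975, minus strand): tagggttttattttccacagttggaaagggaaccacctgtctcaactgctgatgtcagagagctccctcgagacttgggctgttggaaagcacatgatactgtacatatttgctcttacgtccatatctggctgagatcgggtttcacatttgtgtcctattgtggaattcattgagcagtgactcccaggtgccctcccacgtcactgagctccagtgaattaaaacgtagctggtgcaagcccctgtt
Cpt1a (chr19:3323051-3323300, plus strand): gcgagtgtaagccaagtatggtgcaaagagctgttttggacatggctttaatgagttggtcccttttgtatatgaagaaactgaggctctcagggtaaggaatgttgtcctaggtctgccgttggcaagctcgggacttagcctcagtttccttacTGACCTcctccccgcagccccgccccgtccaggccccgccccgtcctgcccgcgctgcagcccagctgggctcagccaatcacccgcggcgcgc
Acadvl (chr11:70015429-70015678, minus strand): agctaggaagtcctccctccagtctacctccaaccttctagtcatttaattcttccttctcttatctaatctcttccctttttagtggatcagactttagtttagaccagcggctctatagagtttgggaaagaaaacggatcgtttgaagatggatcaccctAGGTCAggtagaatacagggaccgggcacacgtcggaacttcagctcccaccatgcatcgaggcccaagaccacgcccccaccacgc
Acadm (chr3:153944644-153944893, minus strand): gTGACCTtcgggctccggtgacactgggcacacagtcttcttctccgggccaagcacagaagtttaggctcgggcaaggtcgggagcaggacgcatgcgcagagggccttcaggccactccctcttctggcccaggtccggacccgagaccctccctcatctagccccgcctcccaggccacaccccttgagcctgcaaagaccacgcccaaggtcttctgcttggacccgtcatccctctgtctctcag

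All 8 genes had an entry in the RefSeq promoter table. Both strands were searched from 250 bases before to 50 bases after the start. AGGTCA was found in 3 of the 8 windows and in 16.3% of all 32851 windows in the table. A direct repeat of 2 AGGTCA copies 1 base apart, the PPAR response element in its plain form, was in none of the 8 and in 0.0396% of all. TCAAGGTCA, the element of estrogen-related receptors, which holds AGGTCA within it, was in none of the 8 and in 0.423% of all. TGATGCAA, a C/EBP-ATF element, was in none of the 8 and in 0.895% of all. TGACGTCA, the cAMP response element, was added after the values of Ppargc1a were seen and was likewise in none, against 1.79% of all. A match is a description of letters and not a binding site.

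Ppargc1a was read by 2 probes. In the numbered Derlin-1 series the first probe (A_51_P279038) had 2.67 and 2.48 in vehicle controls against 2.34 and 2.45 with 4PBA. The KO arrays there had 2.69 and 2.57 with vehicle against 2.34 and 2.37 with 4PBA. In both genotypes the 2 arrays with 4PBA lay below the 2 without. In the lettered series untreated controls had 2.12 and 2.21 against 1.83 and 1.78 with 4PBA, and KO arrays had 2.37 and 2.19 against 1.98 and 1.78. These groups were again apart. The lettered slide as a whole was low, at 1.78 to 2.37, where the other 16 arrays had 2.34 to 2.94. On the Derlin-2 slide controls had 2.94 and 2.76 with vehicle against 2.56 and 2.78 with 4PBA, which overlap, and KO arrays had 2.76 and 2.68 against 2.49 and 2.41, which do not. The mean was thus lower with 4PBA in 6 of 6 pairs, and the arrays were apart in 5 of them. The differences of -0.36 in controls and -0.40 in KO of the lettered series, whose arrays without 4PBA have no stated vehicle, were the furthest from 0 of the 6.

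Averaged over the 6 pairs, this probe fell by 0.28 on the log2 scale (standard error, SE, 0.05; 95% confidence interval -0.38 to -0.18; limma adjusted p = 0.0107), to 0.824 of the level without 4PBA. It was 1 of 223 probes called at an adjusted p under 0.05 among 38258 tested, or 0.583%. The second probe (A_55_P2745394) had a difference of -0.21 (SE 0.06, 95% confidence interval -0.34 to -0.08, limma adjusted p = 0.208), lower in 6 of 6 pairs and apart in 4. Of all probes without missing values 5.09% had a lower mean in all 6 pairs (13.4% under median scaling), and 0.361% also had arrays apart in at least 5. Over the 24 arrays, after each slide's mean was taken off, the 2 probes had a correlation of 0.89; they share arrays and transcript, so this is a description.

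The call rested on the average. Without both arrays whose labels are in doubt the difference of the first probe was -0.26 with an adjusted p of 0.0594, while leaving out any 1 of the 24 arrays kept it called, with adjusted p from 0.00967 to 0.0313. Each slide fitted alone gave -0.23 in the numbered series (adjusted p = 1), -0.38 in the lettered series (adjusted p = 1) and -0.23 on the Derlin-2 slide (adjusted p = 0.311), all by limma.

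**Figure D1:**
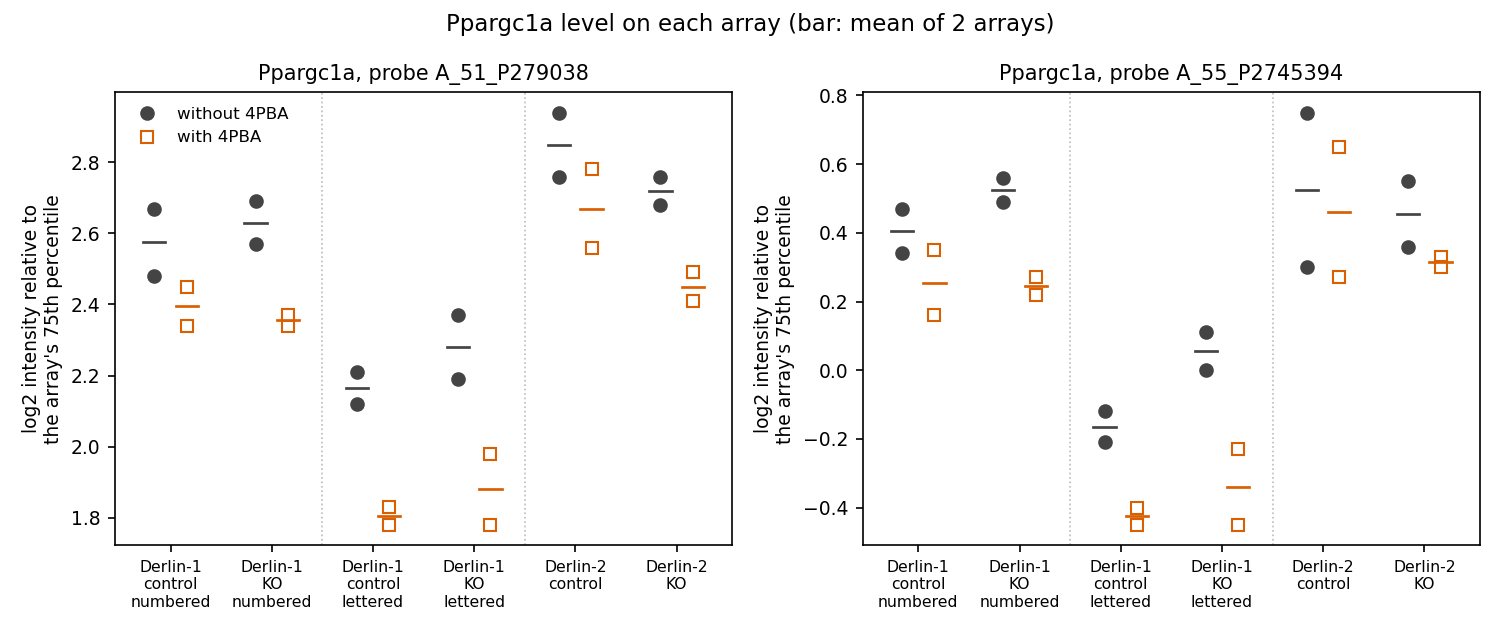
Ppargc1a level on each array for both probes (y axis: log2 intensity relative to the array's 75th percentile), by genotype and series on the x axis; points are arrays, bars are means of 2 arrays, and dotted lines divide the slides. On probe A_51_P279038 the mean with 4PBA lies below the mean without in all 6 pairs, and only the Derlin-2 control arrays overlap.

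Split by genotype, the first probe's difference under 4PBA was -0.27 in Derlin-1 controls, where 0.0496% of all probes were called, and -0.34 in Derlin-1 KO, where 0.0809% were called. It was -0.18 in Derlin-2 controls (0.279% of all probes called) and -0.27 in Derlin-2 KO (0.256% called). None of the 4 passed limma's threshold, with adjusted p-values of 1, 0.313, 0.779 and 0.498. Without the library in doubt the KO values were -0.29 (adjusted p = 0.943) for Derlin-1 and -0.24 (adjusted p = 0.822) for Derlin-2. No other member probe passed in these 4 comparisons either; of the 11 probes 1, 2, 0 and 1 had an unadjusted p under 0.05, where 2.41%, 5.61%, 7.18% and 8.89% of all probes did. Whether 4PBA acted differently in KO and control was tested as an interaction: the difference was -0.06 (95% confidence interval -0.31 to 0.18, adjusted p = 1) in the Derlin-1 line, where 0.0418% of all probes were called, and -0.09 (95% confidence interval -0.43 to 0.25, adjusted p = 1) in the Derlin-2 line, where 0.206% were called. Without the library in doubt these differences were -0.02 and -0.06 (adjusted p = 1 for both). For both interactions 0 of 11 member probes were called by limma and 0 had an unadjusted p under 0.05.

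By group mean, Ppargc1a (A_51_P279038) was highest in Derlin-2 controls with vehicle, at 2.85 ± 0.13 (SD, n = 2), and lowest in lettered Derlin-1 controls with 4PBA, at 1.80 ± 0.04 (SD, n = 2). The 4 groups of the lettered slide came lowest (1.80 to 2.28). Next were 3 groups with 4PBA, numbered Derlin-1 KO (2.36), numbered Derlin-1 control (2.40) and Derlin-2 KO (2.45). In the middle, numbered Derlin-1 vehicle controls (2.58 ± 0.13, SD, n = 2) and numbered Derlin-1 vehicle KO (2.63 ± 0.08, SD, n = 2) did not differ beyond their spread. The genes whose 12 group means, with the slide mean off, followed it most closely among 14265 genes were Eea1, which encodes an early endosome tether (r = 0.97), Cspg4, which encodes the proteoglycan NG2 of oligodendrocyte precursors and pericytes (r = 0.95), and Asph, which encodes an aspartyl hydroxylase (r = 0.93). With 4PBA over the 6 pairs Eea1 differed by -0.07, Cspg4 by -0.19 and Asph by -0.12. None of the 3 was called by limma (adjusted p = 0.694, 0.106 and 0.313). The points of each correlation share arrays and groups, and no test of the correlations is given.

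Summed marker levels of the cell types were compared with and without 4PBA, since fewer cells of a type and less RNA per cell cannot be told apart in whole cerebellum. For each list the linear level of its genes was summed on each array. The Purkinje cell sum (8 of 8 genes measured) lay between 764 and 1160 on the 12 arrays without 4PBA and between 780 and 1020 on the 12 with it. Within slides it was 1030 to 1100 with vehicle and 970 to 1020 with 4PBA in the numbered series, and 984 to 1160 against 806 to 923 on the Derlin-2 slide, so the arrays were apart on both. On the lettered slide they overlapped, with 764 to 973 without and 780 to 1010 with 4PBA. The sum for astrocytes and Bergmann glia, the radial astrocytes of the cerebellum (9 of 9 genes), lay between 502 and 944 without and 508 and 912 with 4PBA. On the Derlin-2 slide alone the astrocyte sum was 831 to 934 with vehicle and 709 to 800 with 4PBA, and the endothelial sum (7 of 7 genes) was 29.0 to 36.0 against 26.6 to 27.8. The granule neuron sum (9 of 9) was 719 to 805 against 642 to 697 on that slide, so all 3 were apart there. Most genes were lower with 4PBA on that slide. Of all genes, 5540 of 17005 were higher in controls (median -0.07) and 5402 of 16997 in KO (median -0.09). Over all slides the granule neuron sum was 416 to 805 without and 393 to 697 with 4PBA. Of the 8 marker lists none had a gene called by limma for 4PBA over the 6 pairs. Over all features, 5580 of 16986 genes were higher with a median of -0.03, and 9.38% of probes had an unadjusted p under 0.05. In the Purkinje list 0 of 8 genes were higher with 4PBA, the median was -0.10 and 3 had an unadjusted p under 0.05. In the endothelial list 0 of 7 were higher, the median was -0.10 and 2 had an unadjusted p under 0.05. In the microglia list 3 of 12 were higher, with a median of -0.15, and in the oligodendrocyte list 0 of 7, with a median of -0.06. The part of these cells in the change of Ppargc1a was not tested. The correlation of the first Ppargc1a probe with the marker sums over the 24 arrays, slide means off, was between -0.31 (choroid plexus) and 0.46 (endothelial cells).

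The other 7 genes showed no called difference with 4PBA over the 6 pairs. Cpt1a, which encodes the outer-membrane carnitine palmitoyltransferase, differed by -0.07 (95% confidence interval -0.20 to 0.06), and Acadm, the medium-chain acyl-CoA dehydrogenase, by -0.07 (-0.17 to 0.03). Both were lower in 6 of 6 pairs, by 0.01 to 0.23 for Cpt1a and by 0.02 to 0.16 for Acadm, but under quantile normalization in 5 of 6. Their arrays were apart in 1 and 2 pairs. Acadvl, the very-long-chain dehydrogenase, differed by -0.05, and Hadha, the alpha subunit of the trifunctional protein, by -0.03. Ppara differed by 0.02 and 0.03 on its 2 probes, Pdk4, which encodes a kinase that restrains glucose oxidation, by 0.03, and Ucp2, which encodes a mitochondrial carrier, by -0.01 and 0.02. In all, 7 of 11 member probes were lower and 4 higher, with a median of -0.03, against 41.2% of all probes higher and a median of -0.02. Scaling each array by its median in place of its 75th percentile moved the median of all probes to -0.10, and then 11 of 11 member probes were lower with a median of -0.10, while the first Ppargc1a probe was at -0.36.

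**Figure D2:**
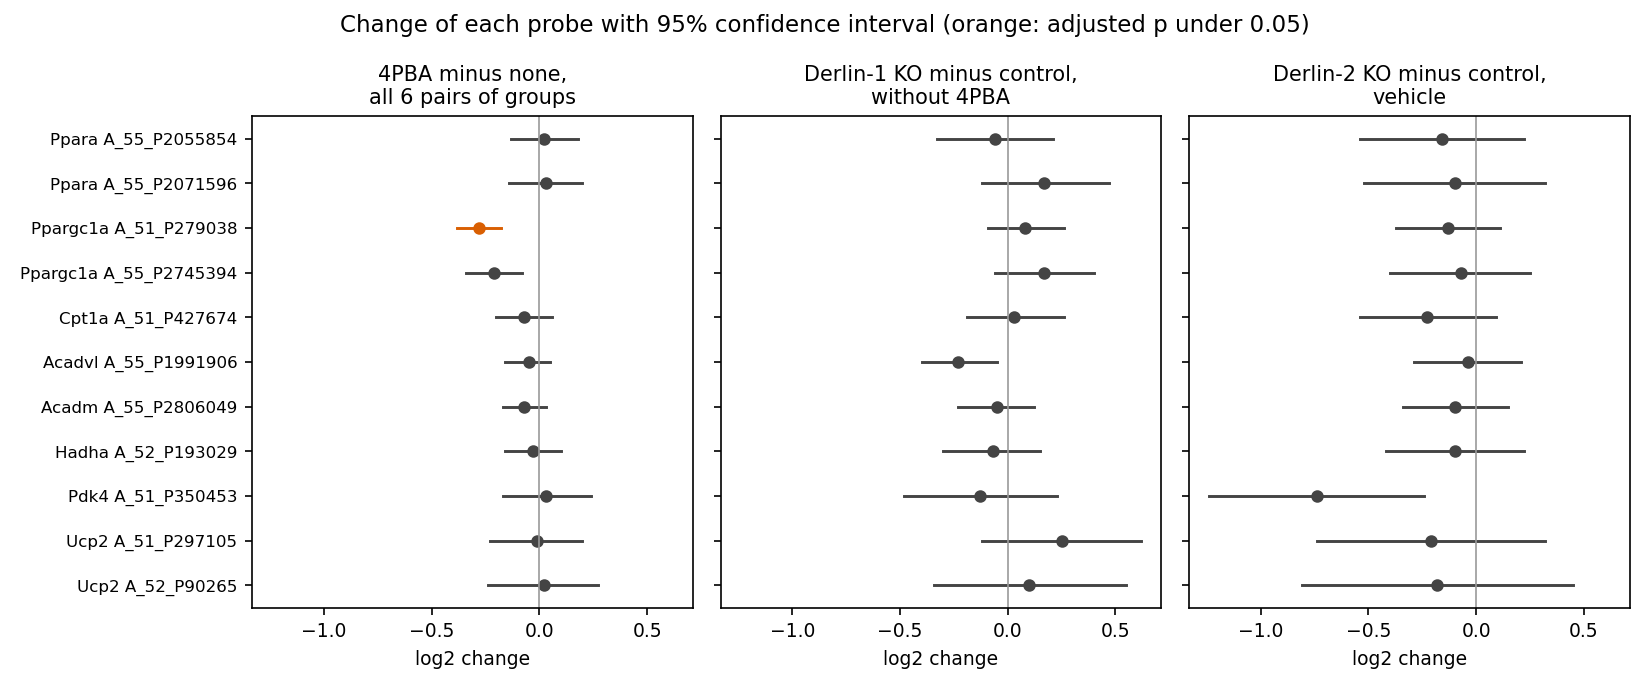
Log2 change of each of the 11 probes (points) with its 95% confidence interval (lines) for 4PBA over the 6 pairs of groups, Derlin-1 KO without 4PBA and Derlin-2 KO with vehicle. The interval of Ppargc1a A_51_P279038, drawn in orange as the called probe, runs from -0.38 to -0.18, and Pdk4 in Derlin-2 KO has the lowest value, -0.74.

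In Derlin-1 KO without 4PBA, where 4.88% of all probes were called, 0 of the 11 member probes were called by limma and 1 had an unadjusted p under 0.05. That probe was Acadvl. In the numbered series it had 4.04 and 4.02 in vehicle controls and 3.86 and 3.87 in vehicle KO. In the lettered series it had 4.24 and 3.93 in untreated controls and 3.75 and 3.83 in untreated KO. The 4 KO arrays lay below the 4 controls. The difference was -0.23 (SE 0.08, 95% confidence interval -0.40 to -0.05, limma adjusted p = 0.131), which was -0.16 within the numbered and -0.30 within the lettered series.

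Under 4PBA, where 0.094% of all probes were called and no member was, with 0 of 11 at an unadjusted p under 0.05, the order for Acadvl recurred. Numbered controls had 4.03 and 3.95 against 3.86 and 3.89 in KO, and lettered controls had 4.21 and 3.96 against 3.77 and 3.93. The difference was -0.17 (SE 0.08, limma adjusted p = 0.517), or -0.21 (adjusted p = 0.3) when Derlin-1 KO 4PBA b, the library in doubt, was left out. That library also moved the count of all probes called, from 36 to 1056 without it. Acadvl was the 1 member probe of 11 with every KO array below every control array both without and with 4PBA, as were 0.209% of all probes.

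Averaged over all 4 pairs of Derlin-1 groups, a comparison added after these values were seen, Acadvl differed by -0.20 (SE 0.06, 95% confidence interval -0.32 to -0.08, limma adjusted p = 0.0437). The alternatives gave adjusted p from 0.0193 to 0.121. Without Derlin-1 KO 4PBA b, the library in doubt, it was -0.22 (adjusted p = 0.0307). The other 10 member probes were not called in it, with 0 of 10 at an unadjusted p under 0.05.

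**Figure D3:**
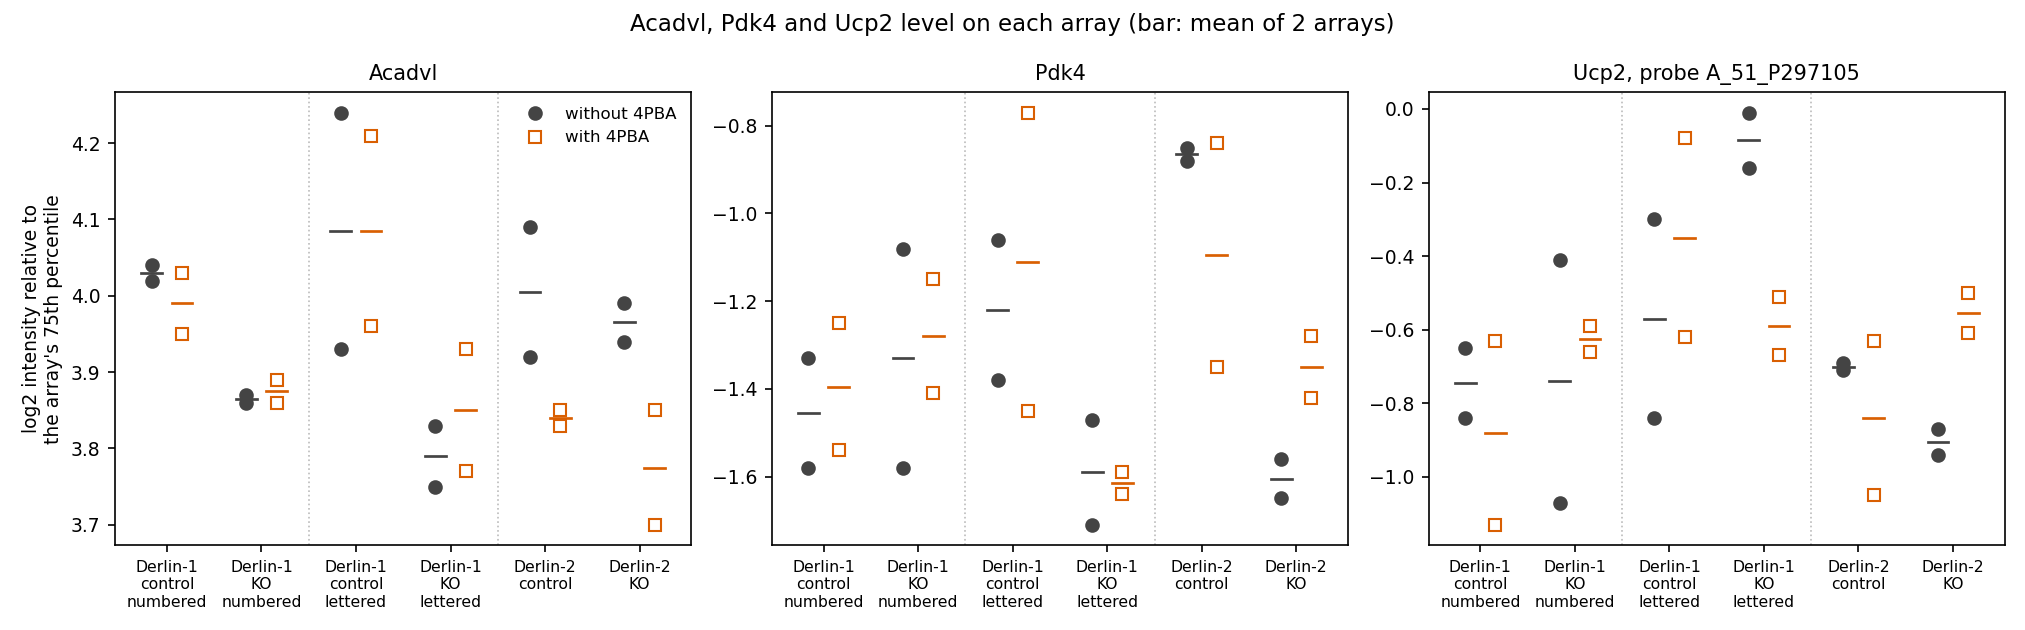
Level of Acadvl, Pdk4 and Ucp2 on each array (y axis: log2 intensity relative to the array's 75th percentile) by genotype and series; filled circles are arrays without 4PBA, open squares arrays with it, bars means of 2 arrays. Acadvl in Derlin-1 KO lies at 3.75 to 3.93 and in Derlin-1 controls at 3.93 to 4.24; Pdk4 in Derlin-2 vehicle KO lies at -1.65 and -1.56 against -0.88 and -0.85 in controls.

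Cell markers moved with Derlin-1 genotype beside Acadvl. The granule neuron sum without 4PBA was 700 to 712 in numbered controls and 546 to 552 in numbered KO, and 525 to 539 against 416 to 423 in the lettered series. The sum for astrocytes and Bergmann glia was 861 to 944 against 860 to 898 in the numbered and 565 to 658 against 502 to 516 in the lettered series. With 4PBA the granule neuron sum was 647 to 673 in numbered controls and 515 to 554 in numbered KO, but overlapped in the lettered series, at 486 to 529 against 393 to 531. The astrocyte sum with 4PBA overlapped in both series, at 539 to 706 in lettered controls against 508 to 573 in lettered KO. In the lettered series both overlaps came from Derlin-1 KO 4PBA b, the library in doubt (granule neurons 531, astrocytes 573). The other array, Derlin-1 KO 4PBA a, had 393 and 508, below both controls. Without 4PBA, where 4.88% of all probes were called, 2 of 9 genes of the granule neuron list were called lower and none higher. These were Gabra6, by 0.76 below controls, and Neurod1, by 0.68. In the astrocyte list Gfap alone was called, 1.24 higher. In the microglia list 8 of 12 were called higher, led by Trem2 (1.77) and Aif1 (1.49), though the list's sum, 71.8% to 92.2% of which came from the 2 bright probes of Itgam and Siglech, was 288 to 316 in numbered controls and 291 to 300 in numbered KO. In the lettered series it was 174 to 185 in controls and 191 to 194 in KO, which do not overlap. Without 4PBA the Purkinje sum was 848 to 973 in lettered controls and 764 to 809 in lettered KO. The endothelial sum there was 39.6 to 40.8 against 45.0 to 48.0, and both sums overlapped in the numbered series. Over the 24 arrays with slide means off, Acadvl had a correlation of 0.89 with the astrocyte and Bergmann glia sum and 0.77 with the Purkinje sum. It was 0.76 with the granule neuron sum and 0.72 with the oligodendrocyte sum. The points share slides and the array's scaling, so this is a description, and the part of cell composition in the Acadvl difference was not tested.

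**Figure D4:**
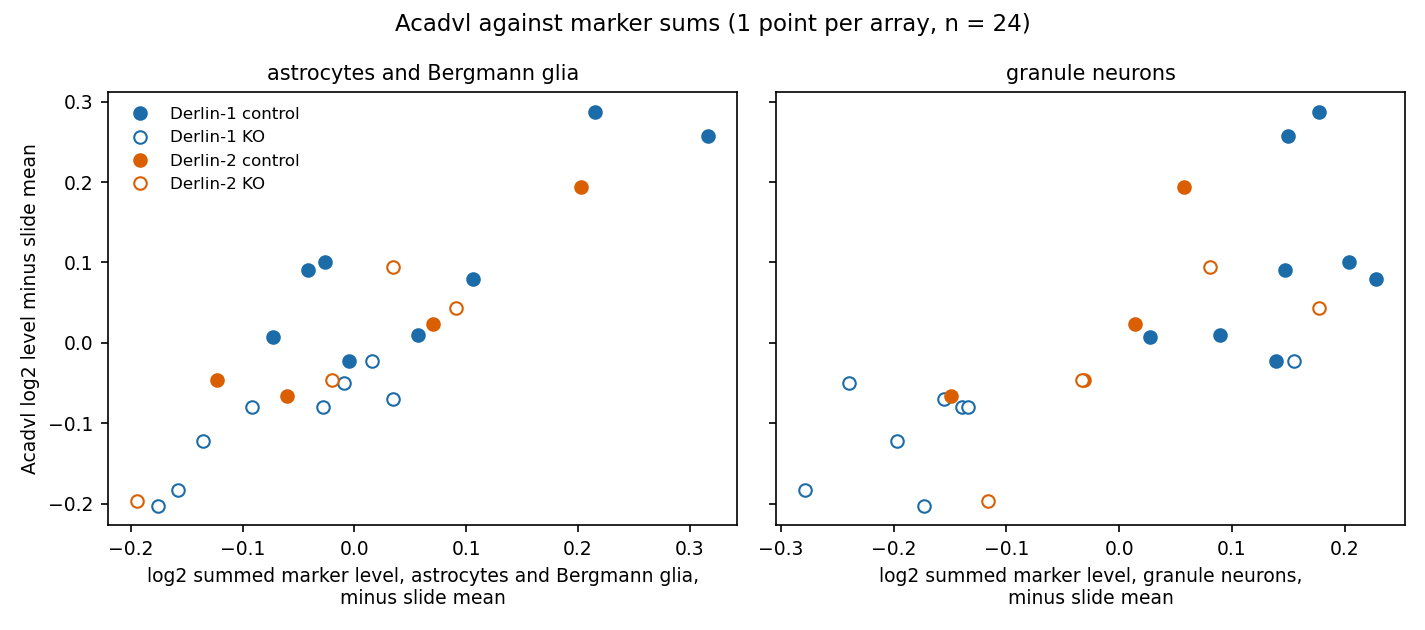
Acadvl level minus the slide mean (y axis, log2) against the log2 summed marker level of astrocytes and Bergmann glia (left) and granule neurons (right) minus the slide mean; each of 24 points is an array, blue for Derlin-1 and orange for Derlin-2, filled for control and open for KO. Arrays with lower marker sums had lower Acadvl, with correlations of 0.89 and 0.76.

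Among the other members in Derlin-1 KO without 4PBA, differences ran from -0.13 (Pdk4) to 0.25 (Ucp2, A_51_P297105), with 6 of 11 member probes higher and a median of 0.03, against 51.9% of all probes higher and a median of 0.01. Of the 1871 probes called there, 908 were higher; under median scaling 413 of 1296 were. Under median scaling 3 of 11 member probes were higher, with a median of -0.09, so the members' balance depended on the scaling; in the numbered series alone 9 of 11 were higher. Ucp2 showed unlike values in the 2 series. On its first probe the lettered untreated KO had -0.01 and -0.16 against -0.30 and -0.84 in controls, a difference of 0.49, and the numbered vehicle KO had -1.07 and -0.41 against -0.84 and -0.65, a difference of 0.01. The gap between the series was itself tested and was -0.48 (SE 0.35, limma adjusted p = 0.97). Over the 24 arrays, slide means off, the Ucp2 probes had correlations of 0.48 and 0.51 with the choroid plexus sum, their highest among the marker lists. That sum ran from 5.59 to 358 on the Derlin-1 arrays without 4PBA, and its part in the Ucp2 values was not tested.

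In Derlin-2 KO with vehicle the member probes lay low together, but 0 of 11 were called by limma, 1 had an unadjusted p under 0.05, and 0.151% of all probes were called. All 11 differences were below 0, with a median of -0.13, where 50.5% of all probes were higher and the median of all was 0. The count was 11 of 11 under quantile, median and normexp settings and without the library labelled Derlin-2 KO vehicle 1, and 10 of 11 without any 1 of the other 3 arrays. Both KO arrays lay below both controls for 9 of 11 member probes, as they did for 23.6% of all probes. The probes share 4 arrays and are not independent. Derlin-2 controls given 4PBA were also lower than the same 2 vehicle control arrays for 10 of 11 member probes (median -0.16), where 40.8% of all probes were higher and the median was -0.05. Both comparisons share those control arrays. In the astrocyte and Bergmann glia list 2 of 9 genes were higher in the vehicle KO, the median was -0.21, none was called and 2 had an unadjusted p under 0.05, where 6.97% of all probes did. That list's sum was 852 to 934 in vehicle controls and 831 to 864 in vehicle KO. The microglia sum (214 to 241 against 248 to 303) and the granule neuron sum (719 to 741 against 753 to 805) were apart and higher in KO. So was the endothelial sum (29.0 to 29.6 against 30.5 to 36.0), and the remaining sums overlapped. By gene, 4 of 12, 6 of 9 and 5 of 7 of these 3 lists were higher. The part of these cells in the members' values was not tested.

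Pdk4 had the largest of these differences. It had -0.88 and -0.85 in Derlin-2 vehicle controls and -1.56 and -1.65 in vehicle KO, a difference of -0.74 (SE 0.23, 95% confidence interval -1.24 to -0.24, limma adjusted p = 0.49). Both KO arrays were low, including vehicle 1, whose Derl2 was like the controls and whose Derl3 was like the KO arrays. Leaving that array out gave -0.78 (adjusted p = 0.418). With 4PBA controls had -1.35 and -0.84 and KO arrays -1.42 and -1.28, which overlap, and the difference was -0.26 (95% confidence interval -0.75 to 0.24). No member was called in that comparison, where 0.29% of all probes were, and 0 of 11 had an unadjusted p under 0.05. In Derlin-1 arrays without 4PBA Pdk4 ranged from -1.71 to -1.06 over both genotypes. KO minus control there was 0.12 in the numbered series and -0.37 in the lettered series. With 4PBA it was 0.11 and -0.51. The lettered KO arrays lay below the lettered controls both without 4PBA (-1.71 and -1.47 against -1.38 and -1.06) and with it. The gap between the series without 4PBA was 0.50 (SE 0.33, limma adjusted p = 0.97). The difference of the KO effects, Derlin-1 minus Derlin-2, was 0.62 (SE 0.28, limma adjusted p = 0.456) for Pdk4, and 0.66 (adjusted p = 0.535) without Derlin-2 KO vehicle 1; no member probe was called for it, 1 of 11 had an unadjusted p under 0.05, and 0.0966% of all probes were called (37, or 141 without that array).

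Ucp2 in the Derlin-2 KO lay at -0.87 and -0.94 with vehicle and at -0.61 and -0.50 with 4PBA on the first probe, and at -1.98 and -2.04 against -1.54 and -1.57 on the second (A_52_P90265). The 4PBA arrays were the higher on both, by 0.35 and 0.46, with limma adjusted p-values of 0.713 and 0.684. The numbered Derlin-1 KO went the same way, by 0.11 and 0.14 (adjusted p = 1 for both). The lettered Derlin-1 KO had the opposite order, -0.01 and -0.16 untreated against -0.51 and -0.67 with 4PBA on the first probe, a difference of -0.50 (adjusted p = 0.83). The Derlin-2 and the lettered values each use a library in doubt. Without it the Derlin-2 KO values were 0.39 and 0.49, and the first probe's value in Derlin-1 KO over both series was -0.16 in place of -0.20. The 2 probes had a correlation of 0.85 over the 24 arrays, slide means off.

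Ppara lay between -0.88 and -0.24 over the 24 arrays on probe A_55_P2055854 and between -2.77 and -1.53 on A_55_P2071596, and no comparison called either. The second probe was -2.77 to -2.22 on the lettered slide and -2.35 to -1.53 on the others. Hadha showed the widest step between slides, with -0.06 to 0.33 on the lettered slide and -1.01 to -0.44 on the others. Cpt1a lay at 1.08 to 1.51 on the lettered slide and at 0.63 to 1.18 on the others. Of these 3 probes only Hadha had no overlap between the lettered slide and the others. The second Ppargc1a probe had none either, with -0.45 to 0.11 on the lettered slide and 0.16 to 0.75 on the others. Slide, series and scan day cannot be told apart. Acadm had the narrowest range of the 11 probes over the 24 arrays, 2.64 to 3.04, followed by Acadvl with 3.70 to 4.24. After slide means were taken off, Acadm had a correlation of 0.75 with Cpt1a, 0.74 with Acadvl and 0.67 with Pdk4 over the 24 arrays, while the first Ppargc1a probe had 0.29 with Cpt1a, 0.19 with Acadm and -0.06 with Acadvl.

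**Figure D5:**
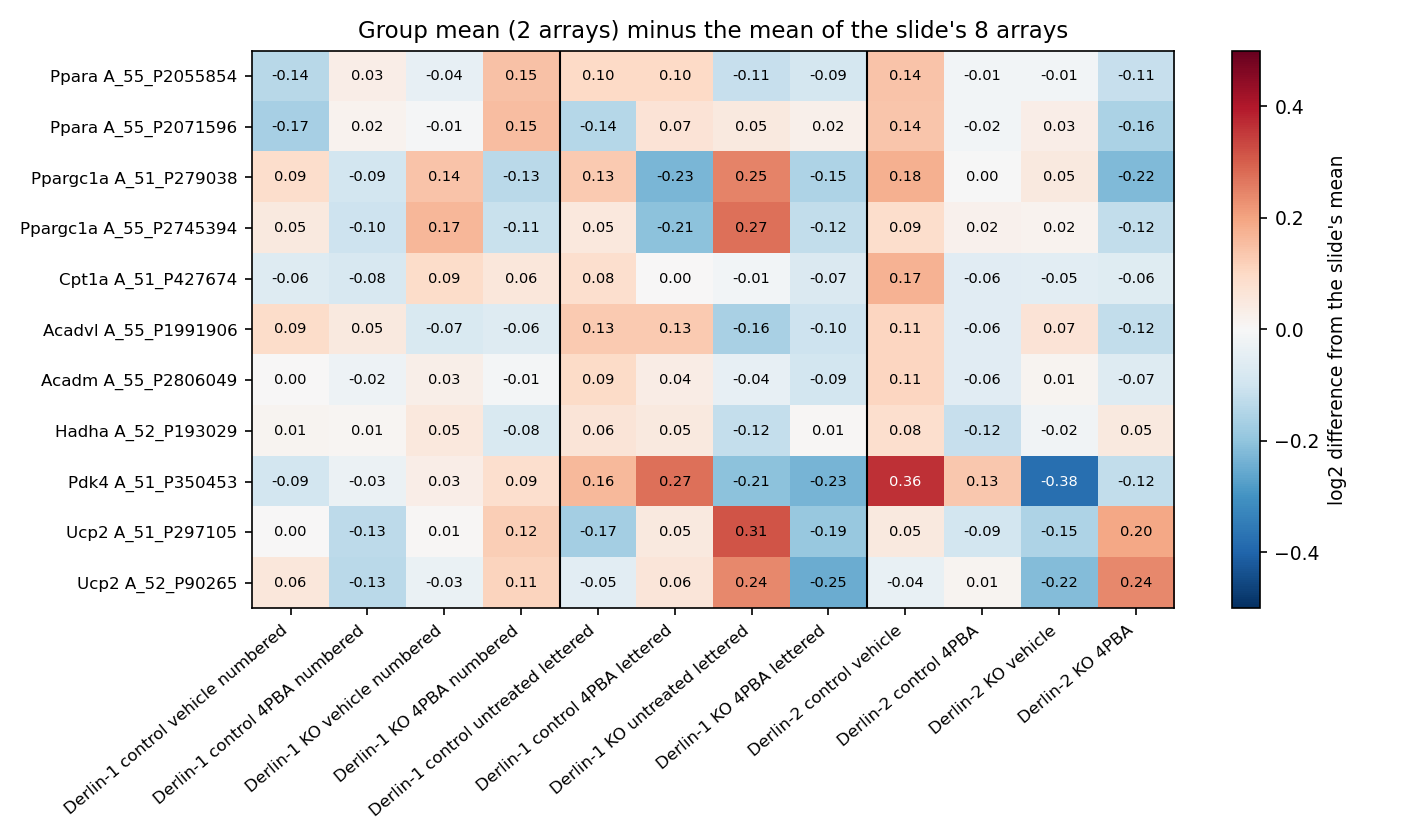
Mean of each group's 2 arrays minus the mean of its slide's 8 arrays (colour and printed value, log2) for the 11 probes (rows) in the 12 groups (columns, with black lines between slides). Both Ppargc1a rows are higher without than with 4PBA in each pair, and Pdk4 spans the widest range, between control and KO with vehicle on the Derlin-2 slide.

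Genes of the same pathways were taken from 8 lists. Of 28 further genes of mitochondrial beta-oxidation and 18 of peroxisomal beta-oxidation, all tested, 0 were called by limma in any of the 12 comparisons. At an unadjusted p under 0.05 there were 6 and 2 in Derlin-1 KO without 4PBA, 0 and 2 in Derlin-2 KO with vehicle, and 0 and 1 with 4PBA over the 6 pairs. The shares of all probes at that threshold were 20.1%, 6.97% and 9.38%. With 4PBA over the 6 pairs no gene of any of the 8 lists was called. The medians were -0.04 for mitochondrial and -0.02 for peroxisomal genes, against -0.03 over 16986 genes. Of the PGC-1 and mitochondrial biogenesis list 2 of 12 genes were higher with 4PBA and the median was -0.07. Of the PPAR receptors, partners and targets 5 of 17 were higher, the median was -0.10 and 3 had an unadjusted p under 0.05, and of the ketone body genes 1 of 6 was higher with a median of -0.10.

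Called genes of these lists occurred in Derlin-1 KO without 4PBA, where 4.88% of all probes were called, and in none of the other 11 comparisons. Of 17 tested PPAR receptors, partners and targets, 2 were called higher and 2 lower. Acot2, a mitochondrial acyl-CoA thioesterase, rose by 0.54 (limma adjusted p = 0.0258) and Rxra, the obligate partner receptor of PPARs, by 0.48 (adjusted p = 0.0321). Plin2, which coats lipid droplets, fell by 0.54 (adjusted p = 0.0293) and Fabp3, a fatty acid binding protein, fell by 0.31 (adjusted p = 0.0385). Of 12 genes of the PGC-1 list only Esrrg, an estrogen-related receptor that PGC-1alpha coactivates, was called, and it fell by 0.49 (adjusted p = 0.0128). Of 10 genes of the pyruvate dehydrogenase list only Dlat, a subunit of the complex that PDK4 inhibits, was called, and it fell by 0.32 (adjusted p = 0.0311). None was called in the lists of uncoupling proteins (5 tested), ketone body metabolism (6) or medium-chain acyl-CoA synthetases (1 of 5 tested).

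For Esrrg the vehicle controls of the numbered series had 3.02 and 3.04 against 2.45 and 2.65 in KO, and untreated lettered controls had 2.49 and 2.69 against 2.06 and 2.13. KO lay below control in both series. For Plin2 the numbered controls had 0.49 and 0.67 against 0.19 and 0.28, and the lettered controls 0.64 and 0.86 against -0.21 and 0.25. These calls were less firm than their direction. All 6 genes kept their direction under 20 alternatives. None of the 6 was called without numbered vehicle KO 1, without lettered untreated control a, without lettered untreated KO a, when the fit held only the Derlin-1 slides, or in either series alone.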

How the data were processed

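Cy3-labelled cerebellar RNA was hybridised to Agilent arrays and read with Agilent Feature Extraction 10.7.1.1, per the submitters' processing notes. The deposited value used was the processed signal, a linear intensity after background correction, per the file headers; the authors' series table holds the same intensities. Nothing in the sources used here records a normalization between arrays. The headers name build mm9, so genes are named through transcript accessions in RefSeq (GRCm38.p6).

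Control spots and outlier flags (52 to 637 spots per array) were left out, repeated spots were averaged, and each array's 75th percentile of log2 intensity (601 to 801 as intensity) was subtracted. No spot was saturated. A probe entered the tests where both arrays of some group had it well above background. The tests used limma 3.58.1 in R 4.3.3 (data.table package, version 1.17.8): 1 fit of 24 arrays with 12 group means, 12 residual degrees of freedom, two-sided, Benjamini-Hochberg over all probes of a comparison, called at adjusted p under 0.05. Derlin-1 comparisons averaged both series. All p-values are limma's. The fit was tested on simulated independent noise, with changes of 1 and 2 log2 units added in Derlin-1 KO without 4PBA. It recovered 73% and 98% of these, with 13 false calls among 38324 probes. Smaller changes were not simulated. The number of arrays limits the precision.

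The members, lists and tests were chosen with earlier results of these data known. Named genes are the members, up to 4 called genes per pathway list and comparison, and the 3 nearest patterns of a called member; a listed gene is read by its brightest probe. Alternatives were normexp background on median signals (mean signals were planned but the files used hold medians), quantile and median scaling, other filters, 1 probe per gene, the series table, array weights, a replicate block, single slides and leaving out arrays.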

Additional observations from a re-analysis of the deposited data

How the results depend on the processing

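The count of member probes called was 0 in 11 comparisons under every alternative run. For 4PBA over the 6 pairs 347 of all probes were called with median scaling and 7587 without a filter, against 223 in the main fit. Under both settings the second Ppargc1a probe was called beside the first (limma adjusted p = 0.0396 and 0.0393). The count of member probes called was thus 1 in the main fit, 2 with median scaling and 2 without a filter. It was 0 in the numbered series alone, 0 in the lettered series alone and 0 on the Derlin-2 slide alone, fits with fewer arrays, and 0 without both arrays in doubt, an alternative added after seeing the data. Leaving out 1 array gave 1 in each of the 24 cases. Under quantile normalization the call was near the threshold (-0.25, limma adjusted p = 0.0498). The labels give replicate numbers no shared source, and they were not taken as pairs, since on no slide did all 6 pairs of groups correlate above 0.1: correlations of same-numbered arrays were -0.22 to 0.66, above 0.1 in 2 pairs on the numbered, 4 on the lettered and 1 on the Derlin-2 slide. With the replicate block the change was -0.28 (adjusted p = 0.0331) and the count stayed 1; it ended the call of Acadvl over the 4 Derlin-1 pairs (adjusted p = 0.0592) and changed no other call of a member. Of all probes, 1871 were called in Derlin-1 KO without 4PBA, 397 without lettered untreated KO a, 3236 without lettered untreated KO b and 0 in the lettered series alone. In Derlin-2 KO with vehicle 58 were called, 165 without the library labelled vehicle 1 and 11 in a fit of that slide alone. For 4PBA over the 6 pairs 223 were called, 7587 without a filter and 0 in the lettered series alone; the cause was not tested. Counts for 4PBA within 1 genotype moved too when 1 array was left out: 14 to 88 in Derlin-1 controls (19 with all arrays), 19 to 182 in Derlin-1 KO (31), and 104 to 215 in Derlin-2 controls and 119 to 264 in Derlin-2 KO (0.279% and 0.256% of probes with all arrays). Without a filter the Derlin-2 counts were 3585 and 5248. In Derlin-2 KO under 4PBA 111 were called, 15 among probes well above background on all 24 arrays and 149 with array weights. The interaction had 16 calls in the Derlin-1 line, 0 in the lettered series alone and 22 under quantile normalization. In the Derlin-2 line it had 79, 0 in a fit of that slide alone and 125 with array weights. The difference between the lines had 37 calls, and 332 without both arrays in doubt; Derlin-1 KO under 4PBA had 36, and 934 without both. Of the 6 called pathway genes, 2 stayed called under median scaling and 2 without a filter. Median scaling moved the median of all probes to -0.11 in Derlin-1 KO without 4PBA, -0.15 for 4PBA in Derlin-2 controls and -0.25 for 4PBA in Derlin-2 KO. With 2 arrays a group, the median SE over all probes was 0.14 for KO or 4PBA effects in the Derlin-1 line and 0.20 in the Derlin-2 line, and 0.20 and 0.29 for their interactions.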
